A study of Mus musculus with 20 samples.

Results

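The clustered protocadherins are 59 of the 24513 genes counted in the hippocampus of 4 mouse genotypes. The rule that defines them uses the gene symbol and no measured value, but the family was chosen with earlier results of these data known. The rule takes every name that starts with Pcdha, Pcdhb, Pcdhga, Pcdhgb or Pcdhgc followed by a member number or letter of the 3 clusters. The alpha cluster gave 15 symbols, the beta cluster 22 and the gamma cluster 22. A filter on low counts kept 55 of them for testing, 11 in alpha and all 22 in each of the other clusters. Of the 4 alpha symbols that did not pass, Pcdha4, Pcdha6 and Pcdha7 had 0 counts in all 20 libraries.

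Polyadenylated RNA was taken from the hippocampus of male mice at 9 months of age, all labelled C57BL/6J, with 5 libraries per genotype. WT mice carried no listed allele. PS19 mice carry a transgene in which the promoter of the mouse prion gene expresses a mutant human tau known from frontotemporal dementia. C3aR KO is the label for loss of C3ar1, the receptor for the complement fragment C3a, and PS19/C3aR KO mice carry both the transgene and that label. The labels do not say that the libraries came from separate animals, and p-values here rest on differences among libraries that may be technical.

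Clustered protocadherins are cadherin-like proteins of the cell surface. Each neuron switches on its own small combination of alpha, beta and gamma isoforms by choosing among alternative promoters, a choice that depends on DNA methylation and on looping by CTCF and cohesin towards distant enhancers. The isoforms bind the same isoforms on other membranes, which lets a neuron tell its own branches from those of others, and gamma isoforms are also needed for the survival of some neurons. The last members of the alpha and gamma clusters, called C-type, are regulated differently and are expressed more uniformly between neurons than the others.

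All 3 clusters lie in a row on chromosome 18 (RefSeq GRCm38.p6, the mm10 build): alpha from 36930285 to 37188897, beta from 37264998 to 37521419 and gamma from 37661775 to 37841873. Each alpha and gamma gene has its own large first exon, with a median length of 2490 nt in alpha and 2607 nt in gamma, and shares its 3 last exons with the rest of its cluster. The shared exons come to 2860 nt in alpha and 2116 to 2119 nt in gamma. A read pair in a shared exon meets several genes and is not credited to any single one of them, so levels were compared between genes per kb of exon that no other member covers. Beta genes have a single exon each. In the GENCODE vM21 transcripts used for exon lengths, the only overlap within that cluster was 455 nt between Pcdhb21 and Pcdhb22. By RefSeq positions these genes do not overlap, as Pcdhb21 ends at 37516363 and Pcdhb22 starts at 37518353. Which annotation release the counts used is not known.

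The counts of the 3 empty alpha genes are tied to the annotation. Pcdha4 starts within 41 nt of Gm37013, Pcdha6 within 6 nt of Gm38666 and Pcdha7 within 9 nt of the read-through gene listed as Pcdha7-g. All 3 read-through genes end at 37841873, where the gamma cluster ends, and none had more than 6 counts in a library. A pair in these first exons meets both a member and a read-through gene, and a level of 0 for Pcdha4, Pcdha6 or Pcdha7 is therefore no measure of their transcription.

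Gene counts ranged from 33885850 to 47828111 per library, and the share of uniquely aligned pairs that touched several genes was 1.39 to 1.64%. C3ar1 went against the knockout label. In CPM, which are counts scaled to library size, it ranged from 1.73 to 2.42 for WT and from 14.1 to 18.0 for C3aR KO. For PS19 the range was 4.98 to 13.7 CPM, and for PS19/C3aR KO it was 14.96 to 18.7. Both groups with the knockout label are therefore called "the libraries labelled C3aR KO" and "labelled PS19/C3aR KO", and every direction given for them is a direction between labels. Neuronal markers were abundant in every library, with a summed level of 7404 to 9302 CPM over 12 genes, and 4 markers of dentate granule neurons summed to 58.3 to 280.5 CPM. Markers of choroid plexus varied most, with Ttr at 9.53 to 4060 CPM.

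The C-type members Pcdhgc3, Pcdhgc5 and Pcdhac2 had the highest levels of all members. Per kb of own exon, and as means over the 20 libraries, Pcdhgc3 stood at 35.2 CPM, Pcdhgc5 at 33.5 and Pcdhac2 at 12.2, whereas Pcdhgc4 stood at 5.21 and Pcdhac1 at 1.31, within the range of the other genes of their clusters. The 5 C-type members took 35.1 to 41.7% of all member counts in a library. The gamma cluster as a whole took 62.8% of member counts on average, beta 25.6% and alpha 11.6%.

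**Figure D1:**
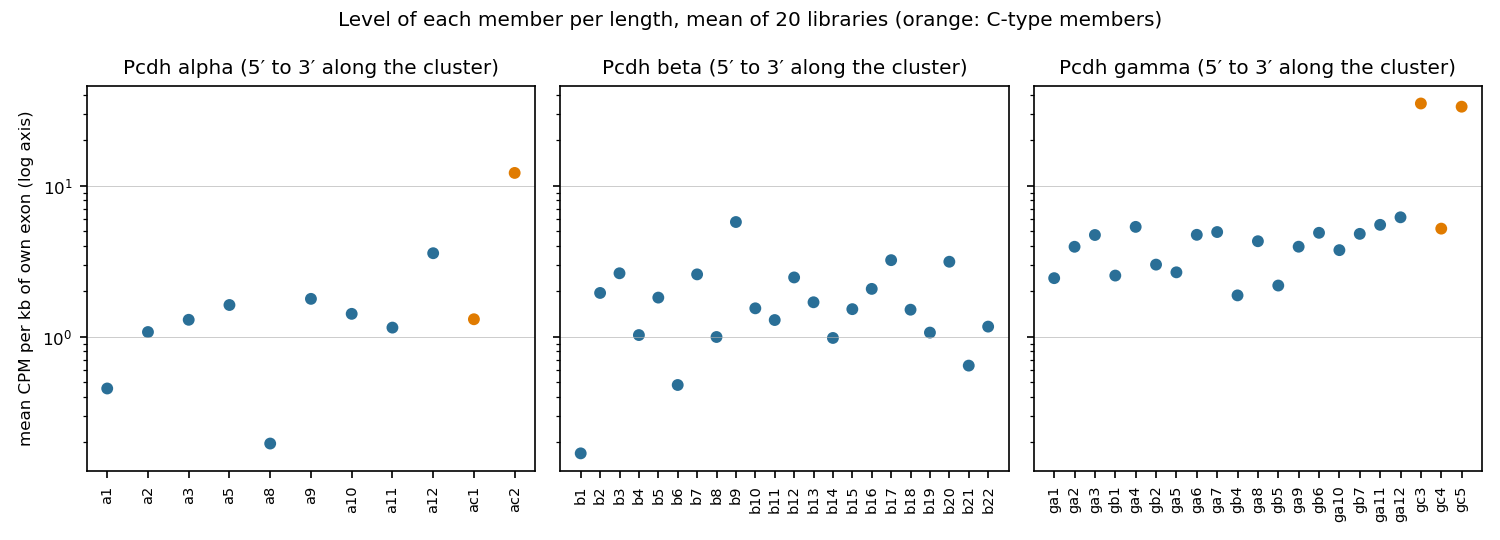
Mean level of each expressed member over 20 libraries, in CPM per kb of exon that no other member covers (log axis), in the order of the genes along each cluster. Pcdhgc3, Pcdhgc5 and Pcdhac2, in orange with the other C-type members, stand at 35.2, 33.5 and 12.2 CPM per kb, above every other member.

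Among the remaining genes the gamma cluster was the highest and the most even. The median level per kb of own exon was 4.72 CPM in gamma, 1.53 in beta and 1.31 in alpha, C-type members included. The highest genes outside the C-type were Pcdhga12 at 6.19 CPM per kb and Pcdhb9 at 5.76, and in alpha it was Pcdha12 at 3.58. The lowest detected genes were Pcdhb1 at 0.169 CPM per kb and Pcdha8 at 0.196. Gamma genes other than C-type ran from 1.88 in Pcdhgb4 to 6.19 in Pcdhga12. Pcdhgb8 had no matched transcript and is given in CPM only.

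Library-to-library spread had a higher median for the members than for all genes. The biological coefficient of variation, the spread beyond counting error that edgeR estimates, had a median of 0.148 over the 55 tested members and 0.109 over all 16657 genes tested. By cluster the median was 0.135 in alpha, 0.135 in beta and 0.158 in gamma. Pcdhgc5 was the least variable of all members at 0.0758.

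Summed over its members, the beta cluster was higher in both sets of libraries labelled C3aR KO than in their counterparts. The beta sum was 146.5 ± 6.59 CPM (SD, n = 5) in WT and 169.8 ± 6.01 in the libraries labelled C3aR KO, which is 15.9% higher. The 5 libraries labelled C3aR KO, at 161.9 to 177.5 CPM, all lay above the 5 WT libraries, at 139.3 to 153.5. It was 146.6 ± 10.7 CPM in PS19 and 164.0 ± 10.99 in the libraries labelled PS19/C3aR KO, 11.8% higher, and there the ranges of 136.0 to 158.5 and 154.8 to 178.9 overlapped. No test was made on these sums.

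**Figure D2:**
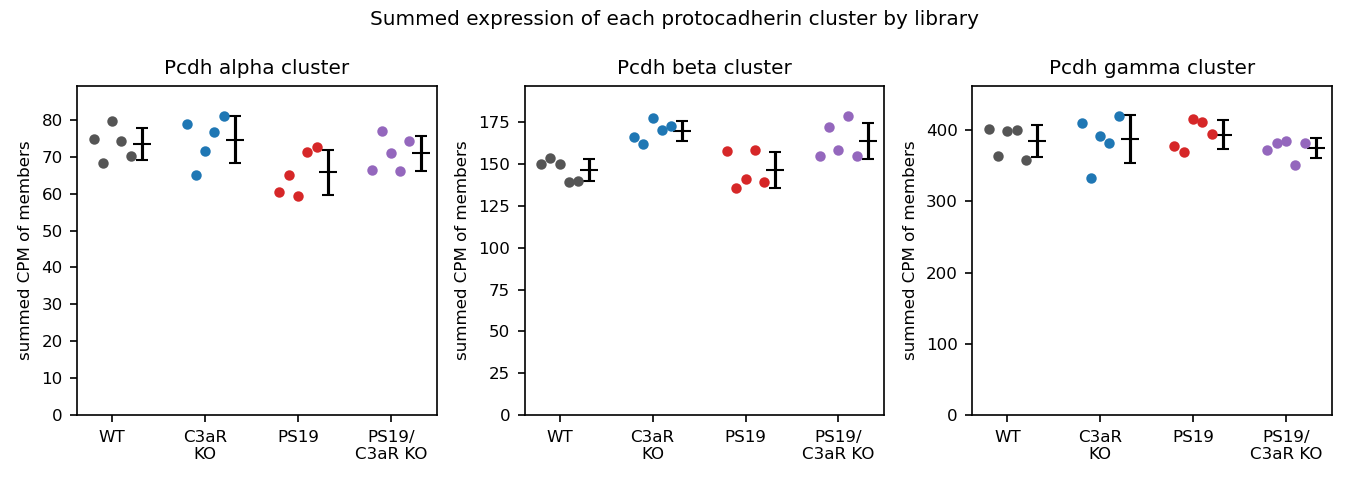
Summed CPM of the members of each cluster in every library (points, libraries 1 to 5 of each group from left to right) with the mean ± SD of the 5 libraries (bars), by genotype. In the beta panel the C3aR KO points, at 161.9 to 177.5 CPM, stand above all WT points, at 139.3 to 153.5; in the alpha and gamma panels the groups overlap.

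The gamma sum differed by at most 4.93% in the 4 comparisons, and the alpha sum was lowest in PS19. Gamma came to 384.6 ± 21.9 CPM in WT, 387.2 ± 33.6 in the libraries labelled C3aR KO, 393.7 ± 19.98 in PS19 and 374.3 ± 14.0 in those labelled PS19/C3aR KO, and the ranges of all pairs of groups compared overlapped. Alpha came to 73.5 ± 4.46, 74.7 ± 6.44, 65.8 ± 6.08 and 71.0 ± 4.74 CPM in the same order. Without its C-type genes alpha was 28.2 to 33.6 CPM in WT and 25.1 to 29.1 in PS19. In the libraries labelled C3aR KO this sum was 31.1 to 36.2 CPM, with a mean 9.51% above WT. In those labelled PS19/C3aR KO it was 28.6 to 34.0 CPM, with a mean 16.9% above PS19. Like the beta sum, this alpha sum was thus higher under both labels, and its ranges overlapped in both comparisons. Within gamma, the 7 B-type genes (Pcdhgb) summed to 58.3 CPM in WT and 47.5 in the libraries labelled C3aR KO, a change of -18.5%. They summed to 56.7 CPM in PS19 and 48.5 in those labelled PS19/C3aR KO, a change of -14.5%. The sum of the 12 A-type genes (Pcdhga) changed by 4.51% and 5.65% in these comparisons. The groups overlapped each time, and no test was made. In bulk tissue, fewer expressing cells and less RNA per cell cannot be told apart.

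In the comparison of C3aR KO with WT libraries, single gamma genes moved far more than their sum. Pcdhga4 rose, and it was the only member called. The log2 fold changes of the other gamma genes ran from -0.9996 in Pcdhga11 to 1.48 in Pcdhgb8. Of 55 members tested 1 was called, as higher, at an adjusted p below 0.05 (edgeR quasi-likelihood test, Benjamini-Hochberg over all genes), whereas 0.06% of all 16657 genes were called and 0.042% were called higher. At an unadjusted p below 0.05 stood 18 of 55 members, 32.7%, against 6% of all genes tested. Because the family was chosen with earlier results of these data known, such shares describe the members and are no independent support. The groups did not overlap for 9 members, of which 7 were higher and 2 lower, whereas 1.24% of all genes did not overlap, 0.702% higher and 0.54% lower. Several genes from here on (Pcdhga5, Pcdhga6, Pcdhga7, Pcdhgb5, Pcdhgb6, Pcdhgb2, Pcdhgb7, Pcdha8, Pcdha10, Pcdha11 and the beta genes other than Pcdhb1, Pcdhb6, Pcdhb7, Pcdhb9, Pcdhb17 and Pcdhb20) were chosen after their values were seen.

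Pcdhga4, an A-type isoform near the start of the gamma cluster, stood at 9.72, 9.07, 11.7, 11.5 and 11.9 CPM in the WT libraries. In the libraries labelled C3aR KO it stood at 18.2, 18.2, 20.1, 16.5 and 16.3 CPM. The highest WT library lay well below the lowest library labelled C3aR KO. The log2 fold change was 0.73 (SE 0.088), a 1.66-fold rise, with an adjusted p of 0.000516 by edgeR's quasi-likelihood test. Only C3ar1 and Gbp2b had a lower p among the 16657 genes in this comparison.

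The same gene was also higher in the second pair of groups, without passing the test there. Pcdhga4 stood at 13.1, 10.1, 11.5, 11.2 and 12.8 CPM in PS19 and at 15.8, 16.1, 13.8, 15.1 and 16.2 in the libraries labelled PS19/C3aR KO. All 5 of the latter lay above all 5 PS19 libraries. The log2 fold change was 0.39 (SE 0.087) with an adjusted p of 0.0627 by edgeR's quasi-likelihood test. It passed with DESeq2's Wald test (adjusted p = 0.0043), with limma-voom (adjusted p = 0.0479) and in edgeR with a replicate block. In edgeR it also passed without PS19 replicate 5 (0.0197) or without WT replicate 2 (0.0454). It did not pass in 7 of 10 other settings, with an edgeR adjusted p of up to 0.121. Of 20 edgeR fits without a single library only 2 passed, and the adjusted p reached 0.185.

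Pcdhgb8, a B-type isoform late in the gamma cluster and its least abundant gene, had the largest fold change. It stood at 1.32, 2.54, 0.95, 2.47 and 0.96 CPM in WT and at 3.35, 5.45, 6.64, 3.28 and 4.47 in the libraries labelled C3aR KO. The groups did not overlap, and the log2 difference was 1.48 (SE 0.28), with an adjusted p of 0.0520 by edgeR's quasi-likelihood test. In PS19 it stood at 3.09, 1.73, 1.92, 1.78 and 1.51 CPM and in the libraries labelled PS19/C3aR KO at 4.69, 4.54, 3.48, 4.04 and 3.72, again without overlap, and the log2 difference was 1.02 (SE 0.28, adjusted p = 0.0965).

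Pcdhgb8 passed in the first pair under 4 of 10 other settings and in 5 of 20 edgeR fits without a single library. Without WT replicate 2 the log2 difference was 1.70 (edgeR adjusted p = 0.0263), without WT replicate 4 it was 1.68 (0.0408), without C3aR KO replicate 1 it was 1.59 (0.0481), without C3aR KO replicate 4 it was 1.59 (0.0400) and without PS19 replicate 1 it was 1.48 (0.0352). DESeq2's Wald test gave an adjusted p of 0.000177. In 6 of the 10 other settings Pcdhgb8 still did not pass, with an edgeR adjusted p of up to 0.522. The log2 difference fell as low as 1.15 over the 10 settings. Without single libraries the edgeR adjusted p reached 0.164.

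The genes between Pcdhga4 and Pcdhgb8 are described in their order along the cluster, an order looked at after the values were seen and not tested. Along the cluster Pcdhga4 is followed by Pcdhgb2, Pcdhga5, Pcdhga6 and Pcdhga7, and in C3aR KO minus WT the log2 differences of these 3 A-type genes were 0.87 (SE 0.26), 0.54 (SE 0.16) and 0.41 (SE 0.15). Further along, Pcdhgb5, Pcdhga9, Pcdhgb6, Pcdhgb7 and Pcdhga11 lay below WT, at -0.58 (SE 0.19), -0.39 (SE 0.15), -0.84 (SE 0.18), -0.37 (SE 0.14) and -0.9996 (SE 0.27). The other 4 genes of this stretch, Pcdhgb2, Pcdhgb4, Pcdhga8 and Pcdhga10, lay between -0.17 and 0.11. None of the 8 genes with their SE given passed, with adjusted p from 0.103 in Pcdhgb6 to 0.700 in Pcdhga9 by edgeR's quasi-likelihood test. Pcdhga12 and the 3 C-type genes at the end of the cluster differed by -0.01 to 0.09. In PS19/C3aR KO minus PS19 Pcdhga5, Pcdhga6 and Pcdhga7 were at 0.066 (SE 0.26), 0.13 (SE 0.16) and 0.24 (SE 0.15). Pcdhga9 there lay above PS19, at 0.11 (SE 0.15), while Pcdhgb5, Pcdhgb6, Pcdhgb7 and Pcdhga11 lay below it, from -0.22 to -0.54, and none of these 8 genes passed by edgeR.

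**Figure D3:**
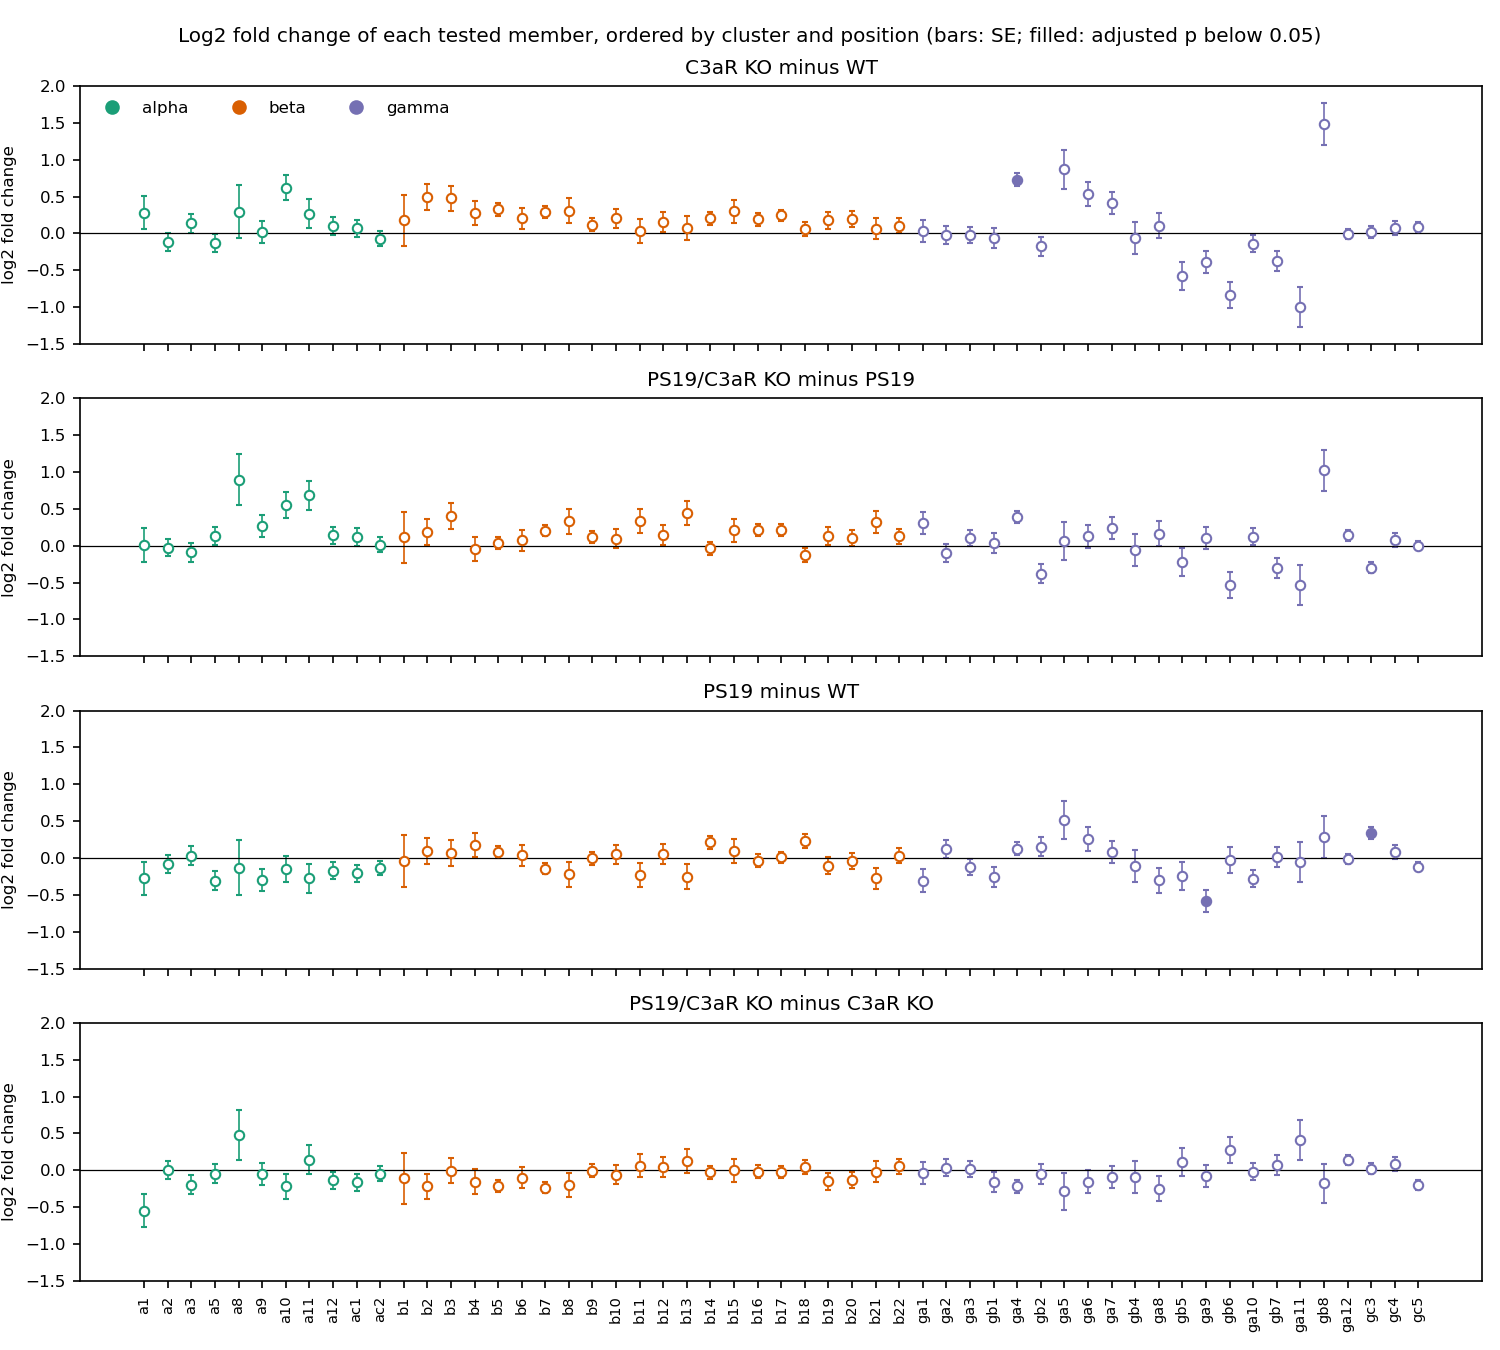
Log2 fold change of each of the 55 tested members (points) with its SE (bars) in 4 comparisons, in the order of the genes along the alpha, beta and gamma clusters; filled points passed at an adjusted p below 0.05. In C3aR KO minus WT all 22 beta points lie above 0, and the gamma points run from -0.9996 in Pcdhga11 to 1.48 in Pcdhgb8, with Pcdhga4 filled at 0.73.

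Pcdhgb6, a B-type isoform, was lower in every library labelled C3aR KO than in any WT library. It stood at 17.4, 14.8, 16.8, 13.8 and 15.1 CPM in WT and at 11.3, 5.43, 6.45, 11.1 and 9.39 in the libraries labelled C3aR KO. In PS19 it stood at 10.97, 14.5, 17.2, 17.6 and 16.1 CPM and in the libraries labelled PS19/C3aR KO at 10.3, 8.21, 10.03, 11.6 and 12.4. There the groups overlapped through the first PS19 library alone, and the log2 difference was -0.54 (SE 0.18, edgeR adjusted p = 0.161).

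Pcdhga11, the A-type isoform just before Pcdhgb8, varied widely within groups. In WT it stood at 20.2, 21.1, 14.2, 23.7 and 13.8 CPM, and in the libraries labelled C3aR KO at 10.5, 5.12, 4.52, 12.2 and 14.1. In PS19 it stood at 9.40 CPM in the first library and 18.3 to 22.8 in the other 4, and in the libraries labelled PS19/C3aR KO at 10.7 to 14.1. The groups overlapped in both comparisons, and the adjusted p in C3aR KO minus WT was 0.361 by edgeR's quasi-likelihood test.

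Libraries of 1 genotype fell apart in several gamma genes at once. WT libraries 3 and 5 stood at 2.76 and 2.52 CPM for Pcdhga5, against 5.74 to 6.72 in the other 3 WT libraries, and they were also the lowest of WT for Pcdhga11 and Pcdhgb8. The libraries 2 and 3 labelled C3aR KO were the lowest of their group for Pcdhga11 and Pcdhgb6 and the highest for Pcdhgb8. PS19 library 1 was the lowest of its group for Pcdhga11 and Pcdhgb6 and the highest for Pcdhgb8 and Pcdhga4.

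**Figure D4:**
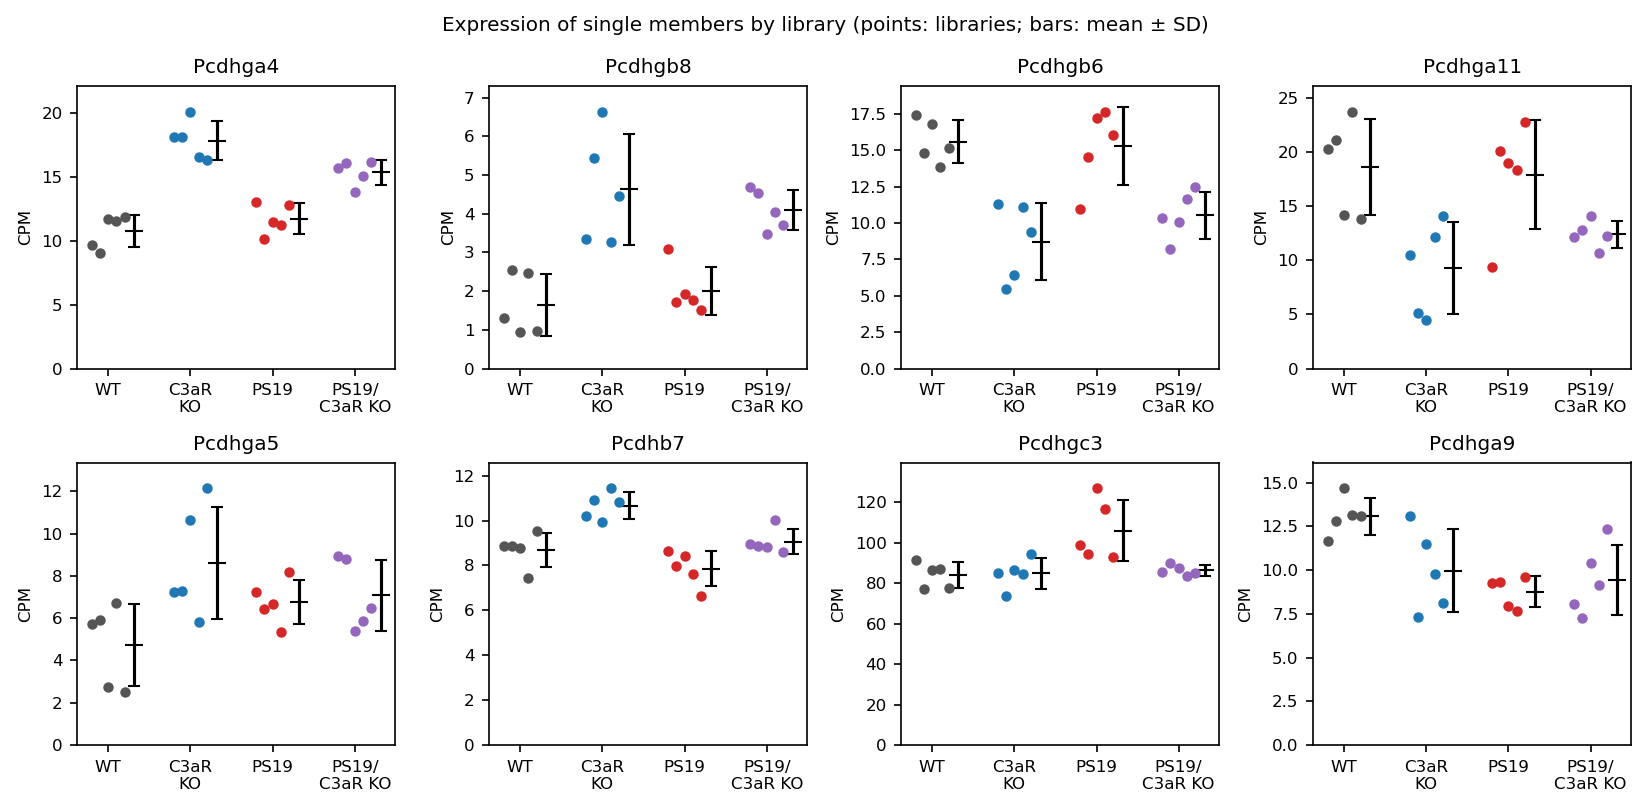
CPM of 8 members in every library (points, libraries 1 to 5 from left to right) with the mean ± SD of the 5 libraries (bars), by genotype. Pcdhga4 and Pcdhgb8 are higher and Pcdhgb6 is lower in the libraries labelled C3aR KO than in all WT libraries, while PS19 library 1 stands apart from the other PS19 libraries in Pcdhgb8, Pcdhgb6 and Pcdhga11.

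**Figure D5:**
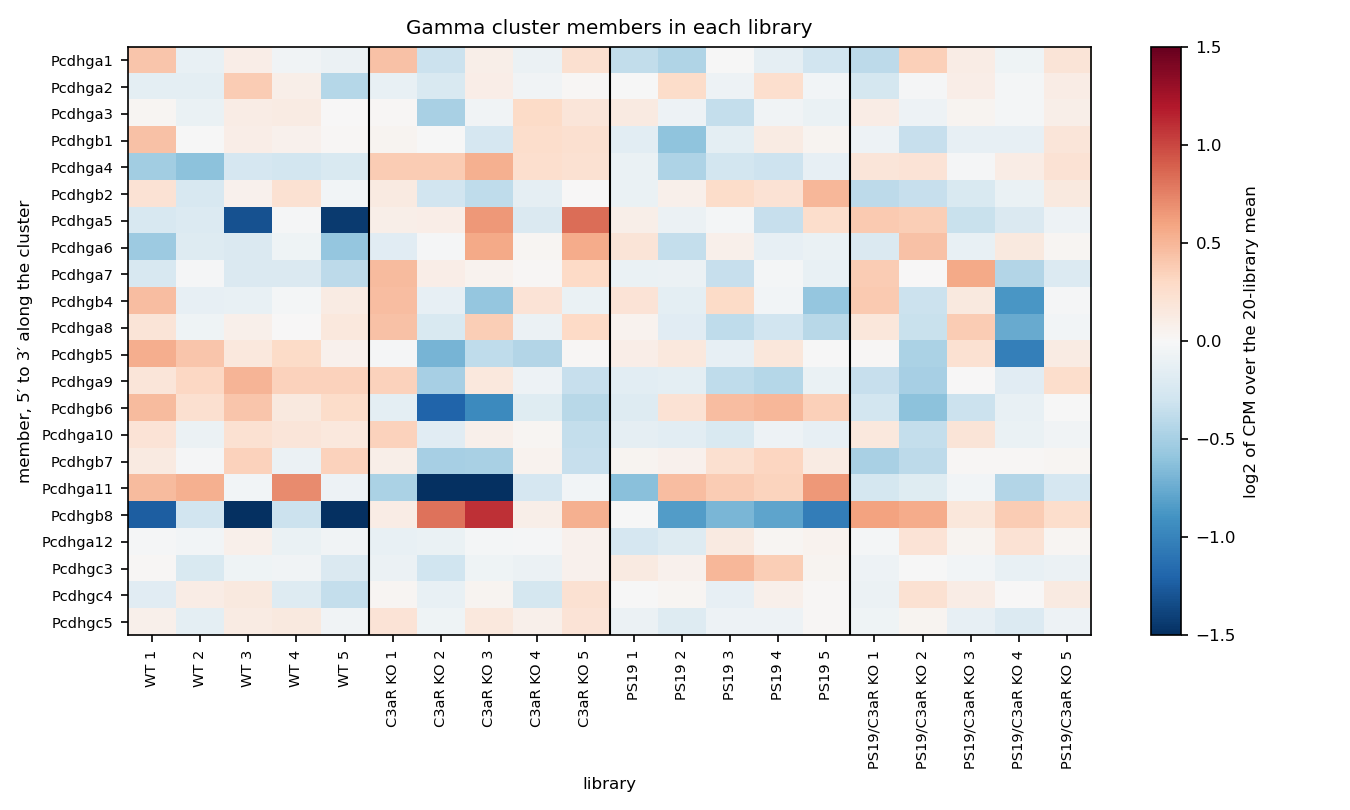
Each gamma member (rows, in cluster order) in each library (columns), coloured by the log2 of its CPM over its mean of 20 libraries, on a scale that ends at -1.5 and 1.5. The widest contrasts are in Pcdhga5, Pcdhgb6, Pcdhga11 and Pcdhgb8, whereas Pcdhga12 and the C-type rows stay pale in most libraries.

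Each beta gene differed by little, and all 22 lay on the same side. In C3aR KO minus WT all 22 beta genes had a log2 fold change above 0, with a median of 0.20, whereas 49.1% of all genes tested lay above 0 and their median was -0.0022. None of the 22 passed by edgeR's quasi-likelihood test, and 7 had an unadjusted p below 0.05. Leaving out single libraries left 20 to 22 beta genes above 0, and the Rn45s covariate described below left 21. Pcdhb7 stood at 8.86, 8.85, 8.78, 7.44 and 9.53 CPM in WT and at 10.2, 10.9, 9.92, 11.4 and 10.8 in the libraries labelled C3aR KO, without overlap, at a log2 difference of 0.29 (SE 0.079, adjusted p = 0.344). Pcdhb2 and Pcdhb5 also did not overlap, at 0.50 (SE 0.17) and 0.33 (SE 0.083), while Pcdhb9, the most abundant beta gene, differed by 0.12 with overlapping groups.

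In PS19/C3aR KO minus PS19, 19 of 22 beta genes lay above 0 with a median of 0.14, and leaving out single libraries left 18 to 20. Again 0 beta genes passed by edgeR's quasi-likelihood test, and 6 had an unadjusted p below 0.05. The exceptions below 0 were Pcdhb4, Pcdhb14 and Pcdhb18. The largest value was that of Pcdhb13, at 0.45 (SE 0.16). Its adjusted p of 0.205 fell to 0.0250 without PS19 replicate 5, the PS19 library in which Pcdhb13 was highest, at 7.64 CPM against 4.03 to 5.08 in the other 4.

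Over all members, PS19/C3aR KO minus PS19 gave 0 calls of 55 in edgeR's quasi-likelihood test, in which 0.252% of all genes were called. At an unadjusted p below 0.05 stood 15 members, 11 higher and 4 lower, or 27.3% against 14.5% of all genes. DESeq2's Wald test called 4 (Pcdhga4, Pcdhgb8 and Pcdha11 higher, Pcdhgc3 lower), limma-voom called 1 (Pcdhga4), and edgeR without PS19 replicate 5 called 3 (Pcdhga4, Pcdhb13 and Pcdhgc3). Groups did not overlap for 6 members, 4 higher and 2 lower, whereas 2.58% of all genes did not overlap, 0.997% higher and 1.58% lower. In alpha these were Pcdha8 and Pcdha11. Pcdha11 stood at 2.26, 2.22, 1.502, 2.52 and 2.41 CPM in PS19 and at 2.95, 4.20, 3.59, 3.96 and 2.80 in the libraries labelled PS19/C3aR KO, at a log2 difference of 0.68 (SE 0.20, edgeR adjusted p = 0.113).

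PS19/C3aR KO minus PS19 shares no library with C3aR KO minus WT, so their directions can be set side by side. The sign was the same for 43 of 55 members, 78.2%, and for 64.9% of all genes tested. In beta it was the same for 19 of 22 genes, all higher in both. In gamma it was the same for 16 of 22, of which 9 were higher and 7 lower in both, and in alpha for 8 of 11.

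Averaged over both backgrounds, in a contrast added after seeing the data, the libraries with the C3aR KO label differed from the others in 6 of 55 members, 5 higher and 1 lower, by edgeR's quasi-likelihood test. Of all genes 1.1% were called, 0.546% higher and 0.552% lower. Pcdhga4 rose by 0.56 (SE 0.062, adjusted p = 0.000141) on the log2 scale and Pcdhgb8 by 1.25 (SE 0.20, adjusted p = 0.0038). Pcdha10, an alpha gene, rose by 0.59 (SE 0.12, adjusted p = 0.0229). Pcdhb7 rose by 0.25 (SE 0.056, adjusted p = 0.0345) and Pcdhb17 by 0.23 (SE 0.055, adjusted p = 0.0482). Pcdhb17 kept its call in only 3 of the 20 fits without a single library, those without WT replicate 1, PS19 replicate 1 or PS19 replicate 4, and its adjusted p reached 0.107 in the others. It also lost the call in 4 of 9 other settings. Pcdhb7 kept its call in 11 of the 20 fits, with an adjusted p of up to 0.0645. It lost it without WT replicates 1, 3 or 4, C3aR KO replicates 2 or 5, PS19 replicate 2 or PS19/C3aR KO replicates 2, 3 or 4. It also lost it in 2 of 9 other settings, and its adjusted p was 0.0811 when the Rn45s share entered the fit. Pcdhgb6 fell by 0.69 (SE 0.12, adjusted p = 0.0110). The call count ranged from 4 to 7 over the fits without single libraries.

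None of the 12 neuronal, 8 astrocyte, 8 microglia, 6 oligodendrocyte and 8 choroid plexus markers was called in either comparison of the C3aR label, and the neuronal median log2 fold change was 0.0086 against WT and 0.044 against PS19. In PS19/C3aR KO minus PS19 all 8 microglia, all 8 astrocyte and all 6 oligodendrocyte markers lay below 0, with medians of -0.55, -0.19 and -0.29. The summed microglia level was 439 to 909 CPM in PS19 and 382 to 634 in the libraries labelled PS19/C3aR KO. For astrocytes the ranges were 6960 to 10738 and 6605 to 8166, and for oligodendrocytes 5567 to 6273 and 3996 to 5467. The 8 choroid plexus markers also all lay below 0, with a median of -0.33, and their sum ranged from 72.6 to 4411 CPM and from 31.2 to 4313. The part of these cell types in the member differences was not tested. The 4 thalamus markers had a summed level of 47.4 to 97.4 CPM in WT and 22.1 to 68.0 in the libraries labelled C3aR KO. All 4 lay below 0 in C3aR KO minus WT, with a median of -1.08. In PS19/C3aR KO minus PS19 all 4 lay above 0, with a median of 0.11. The 4 dentate granule markers lay below 0 in both comparisons, with medians of -0.25 and -0.20. None of these thalamus and dentate markers was called, and their part in the result was not tested. The ribosomal RNA transcript Rn45s took 2.85 to 4.48% of gene counts in WT. Among the libraries labelled C3aR KO it took 4.34% in replicate 1 and 0.923 to 1.99% in the others, which lay below every WT library. The Rn45s share thus largely went with the label in this comparison. With the Rn45s share as a covariate Pcdhga4 in C3aR KO minus WT was 0.76 (edgeR adjusted p = 0.0053), and with Ttr it was 0.74 (0.000468).

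In PS19 minus WT, Pcdhgc3 rose and Pcdhga9 fell. These were 2 of 55 members, in a comparison in which 10.8% of all genes tested were called by edgeR's quasi-likelihood test, 7.5% higher and 3.32% lower. Pcdhgc3, the C-type isoform with the highest level of all members, stood at 91.6, 77.2, 86.6, 86.8 and 77.6 CPM in WT and at 99.1, 94.4, 127.0, 116.5 and 92.9 in PS19. The lowest PS19 library lay above the highest WT library, and the log2 difference was 0.34 (SE 0.080, adjusted p = 0.0101). In the libraries labelled C3aR KO it stood at 73.5 to 94.7 CPM and in those labelled PS19/C3aR KO at 83.4 to 90.1, which lay below every PS19 library (log2 difference from PS19 -0.30, SE 0.080, edgeR adjusted p = 0.0987).

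Pcdhga9, an A-type gamma gene, stood at 11.7, 12.8, 14.7, 13.1 and 13.1 CPM in WT and at 9.27, 9.29, 7.93, 7.68 and 9.60 in PS19. The groups did not overlap, and the log2 scale value fell by 0.58 (SE 0.15, edgeR adjusted p = 0.0164). In the libraries labelled C3aR KO it ranged from 7.31 to 13.1 CPM and in those labelled PS19/C3aR KO from 7.27 to 12.4, overlapping both. The only other member without overlap was Pcdhb14, higher at 0.21 (SE 0.090, adjusted p = 0.144), so that 3 of 55 members did not overlap, 2 higher and 1 lower, where 9.04% of all genes did not, 5.93% higher and 3.11% lower.

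Both calls in PS19 minus WT were lost when the Rn45s share was a covariate, with Pcdhgc3 at 0.31 (edgeR adjusted p = 0.105) and Pcdhga9 at -0.47 (0.173). The Rn45s share was 0.873 to 3.65% in PS19 and 2.85 to 4.48% in WT. Markers moved in this comparison too. All 8 microglia markers and 6 of 8 astrocyte markers were called higher, with median log2 fold changes of 1.03 and 0.38, against 7.5% of all genes. All 8 astrocyte markers lay above 0. Of 12 neuronal markers 3 were called lower, against 3.32% of all genes, and only 2 lay above 0, with a median of -0.11. All 6 oligodendrocyte markers (1 called) and all 8 choroid plexus markers (0 called) lay above 0, with medians of 0.35 and 0.98. The summed microglia level was 319 to 353 CPM in WT and 439 to 909 in PS19, that of astrocytes 5879 to 6282 and 6960 to 10738, and that of neurons 8367 to 9174 and 7404 to 8435. The part of these cell types in the protocadherin values was not tested.

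In the alpha cluster 10 of 11 tested genes lay below 0 in PS19 minus WT, with a median of -0.17. Of all genes 48.3% lay above 0, and their median was -0.0068. Alpha was not alone in this: 2 of 12 protocadherins outside the clusters and 2 of 12 neuronal markers lay above 0, each with a median of -0.11. Of the 11 alpha genes, the values follow. No alpha gene passed by edgeR's quasi-likelihood test, and 1, Pcdha5 at -0.31 (SE 0.13), had an unadjusted p below 0.05. The C-type genes Pcdhac1 and Pcdhac2 stood at 2.58 to 3.53 and 30.1 to 40.6 CPM in PS19 and at 3.21 to 3.59 and 33.7 to 42.5 in WT. For beta the median was 0.020 and for gamma -0.021.

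PS19/C3aR KO minus C3aR KO gave 0 calls among the 55 members by edgeR's quasi-likelihood test and 0 by DESeq2's, and 0.006% of all genes were called by edgeR. At an unadjusted p below 0.05 stood 5 members, 9.09%, against 9.71% of all genes. They were all lower: Pcdhgc5, Pcdhb7, Pcdhb5, Pcdhga4 and Pcdha1. Pcdhgc5, a C-type gene, stood at 101.0, 83.7, 98.1, 92.9 and 101.3 CPM in the libraries labelled C3aR KO and at 84.1, 90.7, 80.7, 76.0 and 83.5 in those labelled PS19/C3aR KO. The groups overlapped, at a log2 difference of -0.20 (SE 0.064, adjusted p = 0.254). Pcdhga4 alone did not overlap, whereas 1.85% of all genes did not and 0.552% were lower without overlap, at -0.21 (SE 0.087, adjusted p = 0.400). This comparison and PS19 minus WT share no library, and the sign was the same for 30 of 55 members, 54.5%, and for 72.3% of all genes.

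Whether the PS19 difference depended on the C3aR label was tested as an interaction, in which 0 of 55 members and 0.012% of all genes passed by edgeR's quasi-likelihood test. DESeq2's Wald test also called 0 members, and 5, 9.09%, had an unadjusted p below 0.05 in edgeR, against 4.15% of all genes. The lowest were Pcdhgc3 at -0.31 (SE 0.11, adjusted p = 0.9995) and Pcdhga4 at -0.34 (SE 0.12, adjusted p = 0.9995). The differences of these genes in PS19 and in WT backgrounds were thus not shown to be unequal.

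Of 20 tested regulators of protocadherin transcription, among them Ctcf, the cohesin subunits Rad21, Smc1a and Smc3, the silencer Smchd1 and DNA methyltransferases, 1 was lower and 0 were higher in PS19 minus WT, where 3.32% of all genes were lower and 7.5% higher, and 0 were called in the other 4 comparisons. The called gene was Ehmt2, a histone H3 lysine methyltransferase, at -0.14 (SE 0.039, edgeR adjusted p = 0.0223). Ctcf stood at 75.3 ± 1.34 CPM in WT, 77.6 ± 2.19 in the libraries labelled C3aR KO, 74.5 ± 2.67 in PS19 and 77.3 ± 3.27 in those labelled PS19/C3aR KO (SD, n = 5 each). Smchd1 stood at 40.0 to 50.9 CPM over all libraries.

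Of 26 enzymes and cytoplasmic partners that process or bind protocadherins, 2 were higher in PS19 minus WT, a share near the 7.5% of all genes called higher. They were Adam10, the protease that sheds their ectodomain, at 0.15 (SE 0.045, edgeR adjusted p = 0.0341), and Psenen, a subunit of gamma-secretase, at 0.13 (SE 0.040, adjusted p = 0.0468). None of the 26 was called in the other 4 comparisons. Of 12 protocadherins outside the clusters 0 were called in any of the 5 comparisons, and their median log2 fold change was -0.11 in PS19 minus WT and -0.014 in C3aR KO minus WT. None of 11 tested genes next to or near the clusters was called in any comparison, with medians of -0.0044 in PS19 minus WT and -0.0064 in C3aR KO minus WT. Taf7, which lies between the beta and gamma clusters, stood at 6.08 to 8.80 CPM over all libraries.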

How the data were processed

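Counts per gene were deposited by the authors as whole numbers with no normalization. Per the labels' protocols, TopHat 2.0.9 placed the 76 nt read pairs on mm10, and htseq-count then counted them over the union of a gene's exons. The sources used here do not give the annotation release or the strand setting. Antisense overlap cannot be told apart, and pairs with several alignments or several genes were credited to no gene. The 5 summary lines were left out of library sizes.

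The 20 libraries were fitted together by the quasi-likelihood method of edgeR 4.0.16 (R 4.3.3) with TMM scaling and filterByExpr (minimum count 10, total 15), which kept 16657 genes. Calls needed a Benjamini-Hochberg adjusted p below 0.05. SE is the log2 fold change over the square root of F. CPM use the TMM library size. DESeq2 1.42.0 and limma 3.58.1 gave alternatives, and the fit was tested on simulated data. Own exons are from GENCODE vM21 transcripts and positions from RefSeq.

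Members and lists were chosen with earlier results of these data known. Named genes were called members, C-type members, the 3 highest and 2 lowest others per cluster, the 2 lowest p per pairwise comparison, and called list genes. Among the alternatives, the averaged contrast, the RefSeq lengths of beta genes and the beta sum without its 3 most abundant members were chosen after seeing the data.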

Additional observations from a re-analysis of the deposited data

Results flagged for a closer look

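In a check of 26 genes and sums over the 4 groups, 104 group checks in all, 3 had a single library far from the other 4. Chance gives about 1 in 20 such checks, and the share found here was no higher than that. Pcdhgb8 stood at 3.09 CPM in PS19 replicate 1 and at 1.51 to 1.92 in the other PS19 libraries. Pcdhac1 stood at 3.21 CPM in WT replicate 4 and at 3.51 to 3.59 in the other WT libraries. Pcdhb7 stood at 10.04 CPM in PS19/C3aR KO replicate 4 and at 8.61 to 8.97 in the others of that group. The causes were not tested.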

How the results depend on the processing

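Directions held more often than calls. Of 230 values of 24 single-gene results under other settings, 212 kept their direction and side of the threshold, 10 newly passed, 8 no longer passed and 0 reversed. Of 480 values without single libraries, 442 kept both, 9 newly passed, 26 no longer passed and 3 reversed. The reversals were all of Pcdhga5 in PS19/C3aR KO minus PS19, at 0.066 with all libraries, -0.0029 without PS19 replicate 4, and -0.031 and -0.022 without PS19/C3aR KO replicates 1 and 2, for an overall range of -0.031 to 0.15.

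Members called in PS19 minus WT were 2, and 0 after adjusting for the Rn45s share, under which 431 and not 1803 of all genes passed. In C3aR KO minus WT they were 1, and 2 with DESeq2 size factors, 3 with DESeq2's Wald test, 2 with limma-voom and 2 with Rn45s left out. In PS19/C3aR KO minus PS19 they were 0, and 4 with DESeq2's Wald test and 1 with limma-voom. In the averaged contrast they were 6, and 11 with DESeq2's Wald test. Without single libraries the counts ranged from 2 to 2, 1 to 2, 0 to 3 and 4 to 7 in the same order, and from 0 to 0 in PS19/C3aR KO minus C3aR KO and in the interaction. Of all genes DESeq2's Wald test called 58 in C3aR KO minus WT, where edgeR called 10. It called 443 against 42 in PS19/C3aR KO minus PS19, 158 against 1 in PS19/C3aR KO minus C3aR KO, and 568 against 183 in the averaged contrast. PS19/C3aR KO minus PS19 called 481 genes without PS19 replicate 5. That library had Gfap at 898 CPM, against 2025 to 2729 in the other PS19 libraries. Its C3ar1 level was 4.98 CPM against 9.04 to 13.7, and its Rn45s share 3.65% against 0.873 to 1.77%. The cause was not tested.

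Whether replicate numbers pair the libraries was not settled, and the main fit used no pairing. Same-numbered libraries of different groups had correlations of -0.27 to 0.55 over 30 pairs, with a median of 0.14. Over 120 pairs with different numbers they were -0.55 to 0.48, with a median of -0.042. Of 20 libraries, 6 correlated best with their own number. With a replicate block 1 member, Pcdhga4 (adjusted p = 0.0467 by edgeR), passed in PS19/C3aR KO minus PS19, and 212 of all genes did. Pcdhb7 in the averaged contrast did not pass with the replicate block (adjusted p = 0.0506).

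The gamma sum changed sign in PS19 minus WT, from a log2 ratio of 0.034 to -0.064 without its most abundant member and -0.051 without C-type members. In PS19/C3aR KO minus PS19 it went from -0.073 to 0.0013 and -0.0052. Without single libraries the alpha log2 ratios ranged from -0.20 to -0.13 (PS19 minus WT), -0.0086 to 0.069 (C3aR KO minus WT), 0.076 to 0.15 (PS19/C3aR KO minus PS19) and -0.12 to -0.041 (PS19/C3aR KO minus C3aR KO). The beta ratios ranged from -0.028 to 0.027, 0.19 to 0.23, 0.13 to 0.19 and -0.084 to -0.030, and the gamma ratios from 0.0086 to 0.056, -0.021 to 0.059, -0.095 to -0.050 and -0.098 to -0.018. Median CPM per kb over whole genes, shared exons included, was 0.617 in alpha and 2.60 in gamma, and 1.76 in beta over RefSeq spans. Depth limits the lowest genes, such as Pcdhb1 and Pcdha8.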
